A study of Mus musculus with 6 samples.

Results

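The cells compared here are all kept cells of the DeltaSP and WT libraries of mouse embryoid bodies, cell aggregates grown from embryonic stem cells, at day 6 of motor neuron differentiation. A cell was kept if at least 1000 genes were detected in it and at most 10% of its UMIs came from genes whose names start with mt-. UMIs (unique molecular identifiers) each count 1 captured RNA molecule. This left 11996 cells, of 16225 kept and 24215 deposited in the whole series, and their raw UMIs were summed per library. The kept cells numbered 4499 in WT 1, 1612 in WT 2, 2283 in DeltaSP 1 and 3602 in DeltaSP 2. The rule used no expression difference between the genotypes.

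All libraries came from the HB9::GFP stem cell line, in which regulatory sequence of the motor neuron gene Mnx1 (HB9) drives a green fluorescent reporter. The WT libraries are labelled wild type. The DeltaSP libraries carry the genotype lncMN2_SP-/-, made with CRISPR/Cas9, and the labels do not say what SP stands for. The KO libraries, genotype lncMN2-/-, were edited at the same locus, and their values are given beside the comparison. They also entered the fit, where they shared in the estimate of spread and in the filter on low counts. The comparison shares its WT libraries with that of KO and WT. Each condition was profiled in 2 clones, so each library is 1 clone. The p-values below therefore measure the spread between clones, in which clone, library preparation and depth cannot be told apart.

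Motor neuron differentiation in embryoid bodies takes neural progenitors through an Olig2-positive progenitor stage to postmitotic neurons that express Mnx1, Isl1 and Lhx3. Long non-coding RNAs are transcripts without a known protein product, and some span the precursors of micro RNAs, short RNAs that pair with target transcripts through their seed, the bases 2 to 8. The annotated span of the edited RNA, 5330434G04Rik, contains Mir325, and Mir384 lies just past its 3′ end. The mature micro RNAs of both hairpins are shown because they are the short products annotated at the edited locus. Their positions are chrX:105379105-105379126 and chrX:105379142-105379164 for the arms of miR-325, and chrX:105344292-105344313 and chrX:105344332-105344354 for those of miR-384. All lie on the minus strand of GRCm38.p6, with sequences from RefSeq and the seed in capitals.
mmu-miR-325-3p: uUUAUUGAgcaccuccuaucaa
mmu-miR-325-5p: cCUAGUAGgugcucaguaagugu
mmu-miR-384-3p: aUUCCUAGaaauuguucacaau
mmu-miR-384-5p: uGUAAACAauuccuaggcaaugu
The 4 seeds differ from each other. The arms of miR-384 start 3969 and 3928 bases beyond the annotated span. The libraries count RNA per gene from 3′-end tags, so levels of these mature micro RNAs were not measured.

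The edited transcript itself was lower in DeltaSP, by an amount that did not pass the test. 5330434G04Rik (ENSMUSG00000087620.7, a lincRNA at chrX:105348282-105391776 on the minus strand) reached 37.4 and 34.8 CPM in the WT libraries and 22.4 and 23.3 CPM in those of DeltaSP. CPM are UMIs scaled to a common library size, after TMM correction for differences in composition. The KO libraries held 0.124 and 0.170 CPM of it, from 4 and 6 UMIs. Both DeltaSP libraries thus lay below both WT libraries and far above both KO libraries. The log2 fold change between DeltaSP and WT was -0.66 ± 0.14 (SE, n = 2 libraries per genotype), with adjusted p = 0.151 in edgeR's quasi-likelihood test with Benjamini-Hochberg adjustment. It passed without WT 2, at -0.71 with adjusted p = 0.0458 in edgeR, and by DESeq2, at -0.67. A 3′-end tag counts the transcript without showing which part is missing, so this level does not check the DeltaSP edit. Between DeltaSP and KO it was the only gene that passed among 14900 tested, at 7.23 on the log2 scale, or 0.00671% of them.

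Around the locus, 12 of 17 annotated genes within 1 Mb were tested and 0 passed in edgeR. At an unadjusted p under 0.05 the number was 1, lower in DeltaSP, where 8.36% of all tested genes were lower at that level. It was also the only call by DESeq2. This was Cox7b, a subunit of the respiratory chain's last complex, with 589 and 426 CPM in WT and 202 and 339 CPM in DeltaSP. In KO it was at 173 and 144 CPM. Cox7b is also 1 of the 79 nuclear respiratory chain genes described below, of which 25 were lower at an unadjusted p under 0.05 in edgeR. Its DeltaSP libraries lay below its WT libraries, with a log2 fold change of -0.91 and adjusted p = 0.204 in edgeR. The chromatin remodeller Atrx stood at 0.03, the magnesium transporter gene Magt1 at 0.17 and Pbdc1 at 0.30.

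Library depth differed most for WT 1. Median UMIs per kept cell were 4157 there and 11898.5 to 15112 in the other 3 libraries compared, and deposited totals ran from 24191242 UMIs in WT 1 to 49061693 in DeltaSP 2. Libraries shared at most 6 kept cell barcodes per pair. DeltaSP 1 stood apart in genes of the Y chromosome. The Y-linked translation factor Eif2s3y was at 40.1 and 26.7 CPM in WT and at 33.2 in DeltaSP 2, and had 0 UMIs in DeltaSP 1, where Ddx3y and Uty were also at 0. Their sum over 8 Y-linked genes was 0.0800 CPM in DeltaSP 1 and 50.8 to 75.9 in the other 5 libraries.

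Few genes separated DeltaSP from WT beyond the spread of the clones. Of 14900 tested genes, 53 (0.356%) passed an adjusted p of 0.05 in edgeR, 43 higher (0.289%) and 10 lower (0.0671%) in DeltaSP. Their adjusted p ran from 0.00219 to 0.0486, with 33 of the 53 above 0.04. Libraries of the 2 genotypes did not overlap for all 53, but they did not overlap for 3712 tested genes (24.9%) with higher and 3449 (23.1%) with lower levels in DeltaSP either. The count changed with single libraries: leaving out WT 1 gave 3, WT 2 gave 1106, DeltaSP 1 gave 1 and DeltaSP 2 gave 4. Of the 53 genes, 3 still passed without WT 1 (Cd2, Cdkn1c and Dlk1), all 53 without WT 2, and 1 (Cd2) without DeltaSP 1 or without DeltaSP 2. All other calls below were therefore lost on leaving out WT 1, DeltaSP 1 or DeltaSP 2, while their direction stayed. With only the WT and DeltaSP libraries in the fit, 42 genes passed in edgeR, 35 of them among the 53. DESeq2's Wald test called 604 genes, 316 higher (2.12% of those tested) and 288 lower (1.93%), all 53 among them. At an unadjusted p under 0.05 edgeR had 1307 genes higher (8.77%) and 1246 lower (8.36%), the shares against which the list counts below are to be read. With levels summed over cells of all kinds, fewer cells of a type and less RNA per cell cannot be told apart. Between DeltaSP and KO, 0 of the 53 passed in edgeR. Of them 38 had an unadjusted p under 0.05 there, and the smallest adjusted p was 0.147, for Ifitm3.

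Most of the rises were genes of the interferon response. Interferons are secreted signals of antiviral defence, made when sensors such as RIG-I and MDA5 detect foreign RNA. They act through receptors, JAK kinases and transcription factors, which switch on effector genes with antiviral, RNA-degrading and antigen-presenting roles. Of 44 effector genes listed, 37 were tested and 21 rose in edgeR, against 0.289% of all tested genes. In each WT library 6 of the 43 effectors present in the files had 0 UMIs, and in each DeltaSP library 1 did, so some members reached the test through DeltaSP alone. As a description of the 37, their median log2 fold change was 4.0, beside -0.01 over all tested genes. Their DeltaSP libraries lay above their WT libraries in 35 cases and below in 1, beside 24.9% and 23.1% of all tested genes. The 1 below was the exonuclease gene Isg20 at -1.03, which did not pass. The effector list was drawn up with earlier results of these samples known, so its count is no independent evidence of a direction. Summed over the list, levels were 51.3 and 46.4 CPM for WT, 549 and 417 CPM for DeltaSP, and 124 and 248 CPM for KO (replicate 1 given before replicate 2, as in all pairs of values). Without WT 1, without DeltaSP 1 or without DeltaSP 2, 0 of the effectors passed in edgeR, and without WT 2 there were 27. Their medians were 3.92, 3.61, 4.02 and 4.03 in that order.

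At the sensing end, the RNA sensor genes Ddx58 (RIG-I) and Ifih1 (MDA5) rose. Ddx58 was at 1.47 and 1.23 CPM in WT and 9.90 and 7.99 CPM in DeltaSP, and Ifih1 at 0.170 and 0.307 CPM in WT and 4.11 and 3.14 CPM in DeltaSP. Neither pair of DeltaSP libraries overlapped WT, and the log2 fold changes were 2.73 ± 0.34 and 3.85 ± 0.52. The transcription factor gene Irf1 rose by 1.84 and Socs1, a feedback inhibitor of JAK kinases, by 1.67. These 4 were the members that passed among 26 tested genes of sensing and signalling, with a list median of 0.47. The genes of the receptor subunit Ifnar1 (0.13), the kinase Jak1 (-0.08), the factor Irf3 (0.05) and the adaptor Mavs (0.81) did not pass. The interferon gene Ifnb1 was barely detected, with 4 UMIs in DeltaSP 1, 1 in DeltaSP 2 and 0 in each WT and KO library.

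The transcription factor genes Irf7 and Irf9 had higher levels in DeltaSP that did not reach the threshold. Irf7, which amplifies interferon production, was at 0.227 and 0.230 CPM in WT, 9.95 and 6.87 CPM in DeltaSP and 0.840 and 4.03 CPM in KO. Its WT libraries lay together and below all others, while its KO libraries were spread. The log2 fold change was 5.18 ± 0.82, with adjusted p = 0.0694 in edgeR. Irf9, a DNA-binding factor of the type I response, stood at 1.78 (adjusted p = 0.154 in edgeR) and the signal transducer gene Stat2 at 0.62 (adjusted p = 0.301).

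Among the effectors, the ubiquitin-like modifier gene Isg15 had 3.85 and 2.15 CPM in WT, 69.96 and 59.1 CPM in DeltaSP, and 6.07 and 17.0 CPM in KO. The DeltaSP libraries were the highest, the KO libraries lay between, and no libraries of different genotypes overlapped. DeltaSP was 21.97-fold above WT (log2 fold change 4.46 ± 0.52, adjusted p = 0.0304 in edgeR). Usp18, which removes ISG15 from proteins and dampens the receptor, rose from 0.566 and 0.920 to 42.6 and 27.8 CPM (5.51 ± 0.72). Rtp4, a membrane protein induced by type I interferon, rose from 0.340 and 0.498 to 44.7 and 30.6 CPM (6.43 ± 0.74). KO had 4.92 and 17.8 CPM of Rtp4 and 3.24 and 12.7 CPM of Usp18, again between the other genotypes.

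The Ifit genes, whose products bind viral RNA, had almost no UMIs in WT. Ifit1 rose from 0.397 and 0.115 CPM to 19.1 and 13.2 CPM, with a log2 fold change of 6.09 ± 0.77 that was 7.09 without WT 1 and 5.33 without WT 2. Ifit3 passed with 1 UMI in both WT libraries together and 540 in DeltaSP, a ratio of depth-scaled counts of 283 with a 95% counting interval of 50.7 to 11217. Ifit3b had 0 UMIs in WT and was at least 20.5-fold higher in DeltaSP, taking 3 UMIs per WT library as the floor. The folds of these genes thus rest on a handful of WT molecules, and Ifit3 and Ifit3b are close copies whose reads may not be told apart.

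Other effectors acted on RNA, membranes or intracellular vacuoles. Oasl2, of the oligoadenylate synthetase family that responds to double-stranded RNA, rose from 0.453 and 0.613 to 31.7 and 21.7 CPM (5.60 ± 0.63), and the RNA-activated kinase gene Eif2ak2 rose by 1.79. Bst2 (tetherin), which holds budding virus at the cell surface, rose from 7.08 and 7.17 CPM to 86.0 and 68.3 CPM, with 18.8 and 38.2 CPM in KO. Its log2 fold change of 3.44 ± 0.34 had adjusted p = 0.0249 in edgeR, and its DeltaSP libraries stood above those of KO. The ubiquitin ligase gene Trim25, which acts on RIG-I, rose by 2.45, and the mitochondrial protein gene Ifi27 by 4.0. The GTPase gene Igtp rose from 0.283 and 0.537 to 15.3 and 12.7 CPM (5.02 ± 0.49, and 5.61 without WT 2). Igtp and Irgm2 (5.38) overlap on the same strand of chromosome 11, so reads from the overlap may not be told apart. Gbp3, a guanylate-binding GTPase gene, rose by 5.26 and Gbp7 by 3.49, and Parp9 (3.19) and Parp14 (4.30), of the ADP-ribosyl transferase family, rose with them. Outside the lists, further genes known to respond to interferon passed: Trim21 (2.53), Zc3hav1 (2.60), Parp12 (2.87), Gbp4 (3.38), Rnf213 (3.98), Ddx60 (4.31), Ifi47 (4.32) and Nmi (1.70).

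Antigen presentation genes were higher as well, though few passed. B2m, the light chain of MHC class I, rose from 28.8 and 24.8 CPM in WT to 52.3 and 52.0 CPM in DeltaSP (0.96 ± 0.13, adjusted p = 0.0472 in edgeR). Psmb8, a catalytic subunit of the immunoproteasome, rose from 0.963 and 0.882 to 7.44 and 11.1 CPM (3.33 ± 0.29). In KO it had 7.03 and 7.22 CPM, just below DeltaSP and well above WT. These 2 passed among 21 tested genes of the pathway, whose median was 0.93. Of the 21, 16 had non-overlapping higher levels in DeltaSP and 1 lower, beside 24.9% and 23.1% of all tested genes. The heavy chain genes H2-D1 (1.11) and H2-K1 (0.76) and the peptide transporter Tap1 (0.93) did not pass. Ifitm3, which blocks entry of virus through endosomes, differed from most effectors in its KO level. It had 95.4 and 114 CPM in WT, 305 and 298 CPM in DeltaSP, and 97.8 and 112 CPM in KO. Only the DeltaSP libraries were high, at 1.52 ± 0.16 on the log2 scale with adjusted p = 0.026 in edgeR. Between DeltaSP and KO its adjusted p was 0.147, which did not pass.

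**Figure D1:**
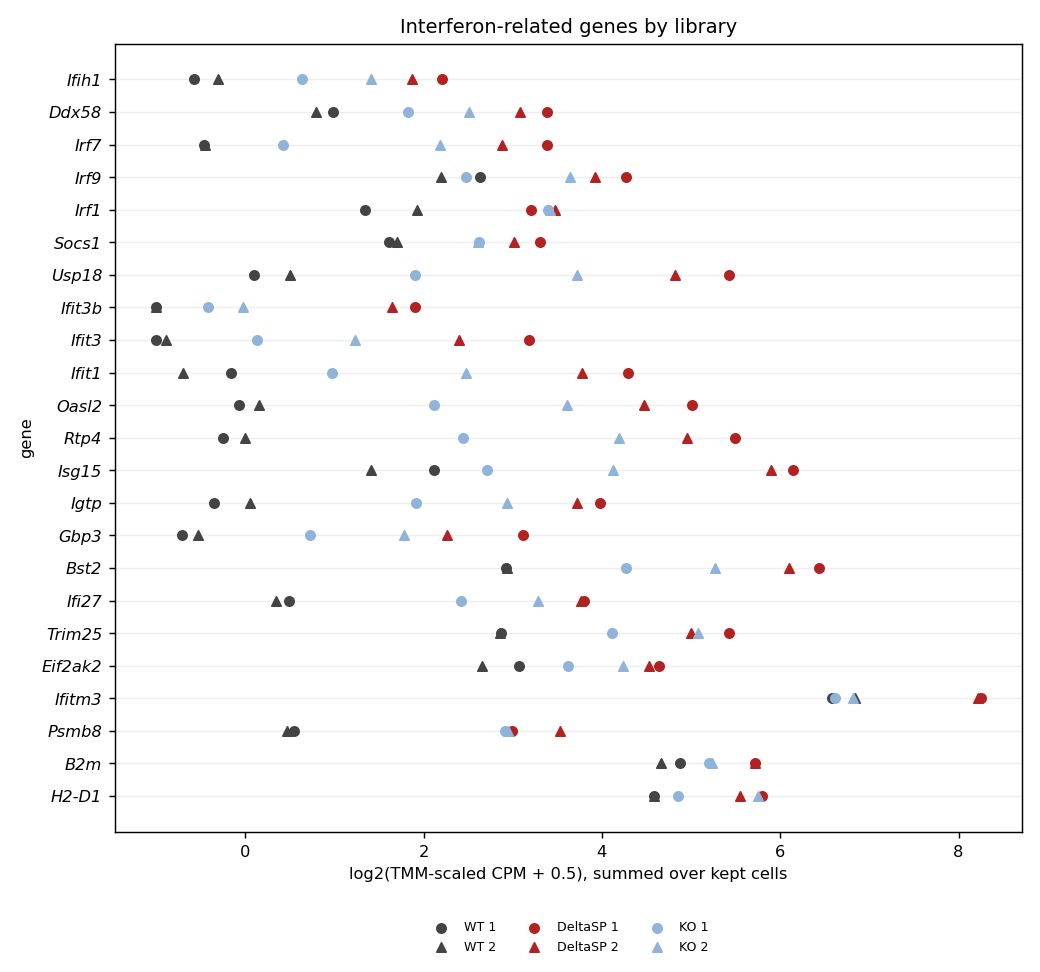
Levels of 23 interferon-related genes in the 6 libraries, as log2 of TMM-scaled CPM plus 0.5, 1 row per gene, with 1 point per library (circle, replicate 1; triangle, replicate 2). For Isg15 the WT points correspond to 3.85 and 2.15 CPM and the DeltaSP points to 69.96 and 59.1 CPM, while for Ifitm3 the KO points fall on the WT points.

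Many effector genes carry a short motif bound by transcription factors of the pathway, the interferon-stimulated response element. Its core was searched as GAAANNGAAA on either strand (TTTCNNTTTC when read on the other strand) in the 250 bases before each start site in RefSeq's promoter table for GRCm38.p6, overlapping matches included. Of 43 genes that rose, 34 had an entry, and 12 of these (35.3%) held a match. Of 10 genes that fell, 6 had an entry, and 1 of these (16.7%) held a match. Among all tested genes with an entry the number was 339 of 11166 (3.04%), among all genes listed 936 of 27025 (3.46%), and among the tested effectors 15 of 28 (53.6%). A gene was counted if any of its listed start sites had a match. A match is a description of letters and not a shown binding site. The following promoters are of effectors described above, 5′ to 3′ along the gene's strand, with matches in capitals: Isg15 at chr4:156200819-156201068 (minus), Ifit1 at chr19:34640639-34640888 (plus), Ifit3 at chr19:34583279-34583528 (plus), Bst2 at chr8:71537473-71537722 (minus) and Igtp at chr11:58199306-58199555 (plus).
Isg15: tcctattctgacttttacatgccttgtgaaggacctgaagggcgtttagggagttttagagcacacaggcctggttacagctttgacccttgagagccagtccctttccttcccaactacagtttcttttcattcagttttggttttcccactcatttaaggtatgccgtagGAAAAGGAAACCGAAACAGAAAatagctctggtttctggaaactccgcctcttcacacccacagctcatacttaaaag
Ifit1: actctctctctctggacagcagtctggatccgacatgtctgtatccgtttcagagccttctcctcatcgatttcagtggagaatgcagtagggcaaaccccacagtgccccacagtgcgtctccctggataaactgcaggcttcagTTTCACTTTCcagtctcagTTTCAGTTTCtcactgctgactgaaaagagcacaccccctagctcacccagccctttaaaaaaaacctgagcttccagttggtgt
Ifit3: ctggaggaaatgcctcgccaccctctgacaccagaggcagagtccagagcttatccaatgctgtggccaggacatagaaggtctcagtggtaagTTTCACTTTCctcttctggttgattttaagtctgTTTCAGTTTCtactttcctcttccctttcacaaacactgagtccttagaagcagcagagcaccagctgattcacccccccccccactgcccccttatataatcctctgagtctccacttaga
Bst2: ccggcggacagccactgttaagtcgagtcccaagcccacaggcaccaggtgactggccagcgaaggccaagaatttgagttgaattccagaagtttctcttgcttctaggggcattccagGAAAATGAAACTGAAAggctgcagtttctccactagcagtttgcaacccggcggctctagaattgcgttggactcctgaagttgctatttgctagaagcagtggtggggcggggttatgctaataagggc
Igtp: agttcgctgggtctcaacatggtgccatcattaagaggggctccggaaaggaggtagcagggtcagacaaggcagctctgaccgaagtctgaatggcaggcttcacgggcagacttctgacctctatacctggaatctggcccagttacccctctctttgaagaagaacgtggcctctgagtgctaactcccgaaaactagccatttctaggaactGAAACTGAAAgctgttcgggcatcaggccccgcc
Isg15 has 3 overlapping matches starting 78 to 66 bases before the start site, Ifit1, Ifit3 and Bst2 have 2 each, and Igtp has 1 at 34 bases before it. The windows of Oasl2, Psmb8, Dlk1 and 5330434G04Rik hold 0 matches.

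The interferon-induced UMIs were concentrated in a part of the cells. Each cell was thinned at random to 3000 UMIs, so that depth was equal, and cells below that were left out. These were 936 of 4499 cells in WT 1 and 101 of 1612 in WT 2, and 103 of 2283 in DeltaSP 1 and 201 of 3602 in DeltaSP 2. Cells with at least 5 UMIs of the effector list made up 0.0842% of WT 1 (95% exact binomial interval 0.0174 to 0.246) and 0.331% of WT 2 (0.108 to 0.771), and 9.04% of DeltaSP 1 (7.87 to 10.3) and 6.38% of DeltaSP 2 (5.58 to 7.25). The KO libraries had 1.74% and 3.65%, between the others. With at least 1 UMI the shares were 9.80% and 11.3% in WT and 42.6% and 36.0% in DeltaSP. The intervals cover counting error only. In DeltaSP the 5% of cells with the most list UMIs held 55.7% and 56.2% of them, and single cells reached 72 and 79 UMIs, against 21 and 8 in WT. In WT the corresponding share was 60.6% and 57.7%, of a far smaller total.

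**Figure D2:**
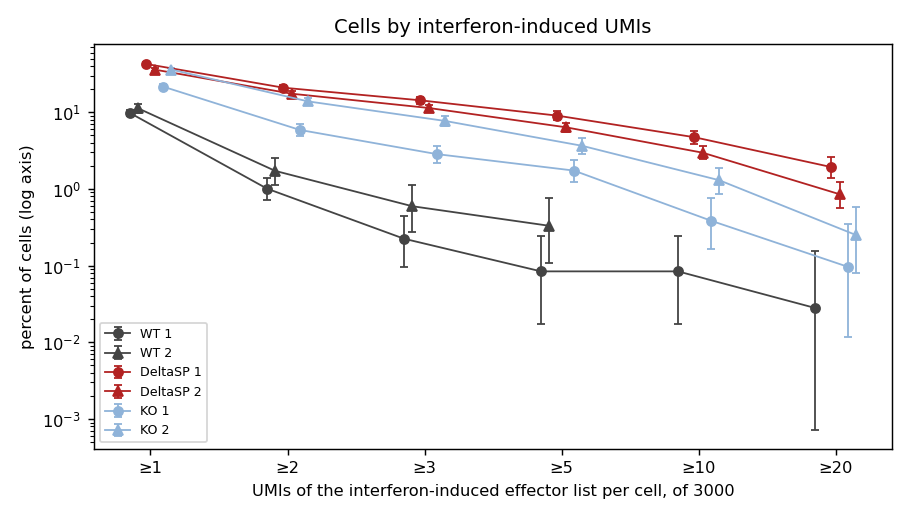
Share of cells (percent, log axis) with at least the given number of UMIs of the interferon-induced effector list after thinning to 3000 UMIs, by library, with exact 95% binomial intervals; shares of 0 are not drawn. At 5 UMIs or more DeltaSP has 9.04% and 6.38% of cells and WT 0.0842% and 0.331%.

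Cells were also divided by neuronal content, into those that kept 10 or more UMIs of an 18-gene pan-neuronal list on thinning and those with fewer. The division is a range of a count and not a cell type. Among the neuron-marker-high cells, those with at least 5 effector UMIs made up 4.42% and 1.91% in DeltaSP, and were 0 of 1748 and 0 of 665 in WT, which allows up to 0.172% and 0.451% when 3 cells are taken as the limit of a count of 0, and has upper limits of 0.211% and 0.553% by the 95% exact interval. Among the neuron-marker-low cells they made up 11.9% and 8.09% in DeltaSP and 0.165% and 0.591% in WT. The shares in DeltaSP were thus above WT on either side of the division, and larger on the low side. On sums over the low cells 36 effectors reached the test and 6 rose in edgeR, where 8 of all 13897 tested genes rose. Of the 43 in the files, 12 and 9 had 0 UMIs in the WT libraries against 3 and 1 in DeltaSP. Some members could thus enter the test of the low cells through DeltaSP, which limits the reading of that count. On sums over the high cells only 22 of 43 reached the test, and 18 and 19 of the 43 had 0 UMIs in the WT libraries against 3 and 3 in DeltaSP. Members thus entered the test of the high cells largely through DeltaSP, and no count or median over them is given. Summed over the list, levels in the high cells were 24.2 and 22.2 CPM in WT and 303 and 224 CPM in DeltaSP, and in the low cells 76.9 and 70.9 CPM in WT and 734 and 508 CPM in DeltaSP. Isg15 reached 107.7 and 78.0 CPM in the low cells of DeltaSP and 8.17 and 4.29 CPM in those of WT.

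Cd2, which encodes an adhesion protein known from the surface of T lymphocytes, had the smallest adjusted p of all genes. It had 5 UMIs in WT 1 and 0 in WT 2 (0.283 and 0 CPM) and 2626 and 2894 UMIs in DeltaSP (70.1 and 63.1 CPM). In KO it was at 66.2 and 67.3 CPM, so the DeltaSP and KO libraries lay together, far above WT. The log2 fold change between DeltaSP and WT was 9.12 ± 0.48 with adjusted p = 0.00219 in edgeR. It was 14.2 without WT 1, where the remaining WT library is at 0 and the fitted size has no meaning, and 7.86 without WT 2. Cd2 was the only gene that passed in each of the 4 fits without 1 of the WT or DeltaSP libraries, with adjusted p from 0.000246 to 0.0244 in edgeR. After thinning, a Cd2 UMI was found in 14.5% and 13.2% of DeltaSP cells, and in 1 of 3563 and 0 of 1511 cells of WT (upper 95% exact limits 0.156% and 0.244%). A UMI in a cell can come from free RNA, and no cell population here is known to lack Cd2 in DeltaSP, so the part of free RNA in these shares was not tested.

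Other genes of T lymphocytes did not accompany Cd2. Of 11 listed markers only Cd2 and the kinase gene Lck were tested, and Lck, at 0.18, did not pass. The receptor chain genes Cd3e, Cd3d and Cd3g had at most 3 UMIs in any WT or DeltaSP library, Cd4 at most 1, and Cd8a 0. Cd2 lies at chr3:101275899-101287939 on the minus strand. Its UMIs were unevenly divided in DeltaSP. Summed levels were 116 and 126 CPM in neuron-marker-high cells of DeltaSP and 36.6 and 33.7 CPM in neuron-marker-low cells. At equal depth, 25.4% (95% exact interval 22.5 to 28.5) and 27.3% (24.5 to 30.2) of the high cells held a Cd2 UMI, against 7.68% (6.31 to 9.23) and 7.85% (6.82 to 8.98) of the low cells. The shares thus differed between the 2 sides within each library by more than counting error. In the high cells both WT libraries had 0, and in the low cells they had 0.649 and 0 CPM.

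Among the 10 genes that fell, 3 were imprinted, that is, expressed mainly from the copy of 1 parent. Cdkn1c, an inhibitor of cyclin-dependent kinases that slows the cell cycle, was at 274 and 271 CPM in WT, 34.9 and 29.8 CPM in DeltaSP, and 25.7 and 34.4 CPM in KO. The WT libraries were nearly equal, and DeltaSP and KO overlapped each other far below them. DeltaSP was 8.43-fold lower than WT (log2 fold change -3.07 ± 0.19, adjusted p = 0.00318 in edgeR). The call held without WT 1 and without WT 2, and was lost narrowly without DeltaSP 1 (adjusted p = 0.0559) and without DeltaSP 2 (adjusted p = 0.0561). Cdkn1c lies on chromosome 7 at 143458339 to 143461050 on the minus strand. It was lower in neuron-marker-high cells, from 431 and 392 to 56.3 and 52.3 CPM, and in neuron-marker-low cells, from 119 and 161 to 19.4 and 19.3 CPM, and passed in each. Of the other cyclin-dependent kinase inhibitors, Cdkn1a (0.26) and Cdkn1b (-0.38) did not pass.

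Dlk1, a Notch-like ligand expressed from the paternal copy, was at 80.4 and 154 CPM in WT, 14.7 and 10.2 CPM in DeltaSP, and 79.2 and 69.0 CPM in KO. Here the KO libraries lay close to the lower WT library, and the DeltaSP libraries were low. The log2 fold change between DeltaSP and WT was -3.23 ± 0.33 (adjusted p = 0.026 in edgeR). Between DeltaSP and KO it was -2.57 with adjusted p = 0.353 in edgeR, which did not pass. Dlk1 lies on chromosome 12, at 109452823 to 109463336 on the plus strand. Meg3, the maternally expressed RNA of the same imprinted cluster, was at 850 and 853 CPM in WT and 1395 and 1006 CPM in DeltaSP (0.50, adjusted p = 0.292), and Mirg, of that cluster too, stood at 0.24. Grb10, an adaptor that restrains growth factor signalling, fell from 46.8 and 65.4 CPM to 10.9 and 7.53 CPM (-2.61 ± 0.29), with 9.80 and 6.33 CPM in KO. In all 28 imprinted genes were tested, 3 fell and 0 rose, the median was 0.06, and the libraries did not overlap for 9 higher and 10 lower, beside 24.9% and 23.1% of all tested genes. H19, a maternally expressed RNA, had 24.98 and 84.2 CPM in WT and 211 and 195 CPM in DeltaSP (1.89, adjusted p = 0.17), and Mest stood at 0.81, neither passing.

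The remaining genes that fell included factors of neurons and non-coding RNAs. Tshz2, a zinc finger gene of the teashirt family, fell from 133 and 106 CPM to 47.3 and 45.1 CPM (-1.37 ± 0.18), while its relatives Tshz1 (-0.38) and Tshz3 (-0.41) did not pass. Scrt1, a transcriptional repressor of newborn neurons, fell from 52.8 and 36.2 to 17.7 and 14.5 CPM (-1.46 ± 0.21). The lincRNA Gm2694 fell from 127 and 74.7 to 24.3 and 18.5 CPM (-2.24 ± 0.29). In each of these the KO libraries were lower still, at 23.6 and 17.9, 10.6 and 10.1, and 9.15 and 6.59 CPM. Srgn, the core protein of secretory granule proteoglycans, was low throughout, at 2.66 and 1.92 CPM in WT and 0.107 and 0.0436 CPM in DeltaSP (-4.90 ± 0.54, and -5.58 without DeltaSP 1).

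For some genes the call depended on an adjustment for transcript length. With it, 45 of the 53 genes still passed in edgeR and 8 did not. These 8 included a rise, that of Matn4 (2.36, with adjusted p = 0.0505 in edgeR after the adjustment), and the following falls. The mitochondrial gene mt-Nd3, a subunit of respiratory complex I, fell from 569 and 755 to 146 and 218 CPM (-1.86 ± 0.26). The small nucleolar RNA host gene Snhg9 fell from 7.99 and 8.78 to 2.24 and 2.25 CPM (-1.90 ± 0.27). Cells were kept partly by their share of UMIs from mt- genes, mt-Nd3 among them, so its fall is not independent of that rule. The limit on this share removed 58 and 61 cells in WT and 231 and 89 in DeltaSP. The part of this limit in the fall of mt-Nd3 was not tested. The longest annotated transcript was 348 bases for mt-Nd3 and 183 for Snhg9, far below the median of 3289 over tested genes, whereas that of the lincRNA AC160336.1, which fell by 2.42, was 93147. With the trend of fold change against transcript length removed, the 3 values became -1.37 (adjusted p = 0.145 in edgeR), -1.02 (adjusted p = 0.186) and -1.83 (adjusted p = 0.11), and none passed. Of 83 tested ribosomal protein genes, 80 with a transcript shorter than that median, 0 passed in edgeR. At an unadjusted p under 0.05, 9 of them were lower and 0 higher, beside 8.36% and 8.77% of all tested genes, and DESeq2 called 5 lower. Their median was -0.29, and was -0.0156 without DeltaSP 1, -0.0476 without WT 1 and -0.66 without DeltaSP 2. Of 79 nuclear genes of the respiratory chain, 0 passed in edgeR, 25 were lower and 2 higher at an unadjusted p under 0.05, and DESeq2 called 15 lower, with a median of -0.28 that ran from -0.15 (without WT 1) to -0.58 (without DeltaSP 2). The part of length in these results beyond this adjustment was not tested.

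**Figure D3:**
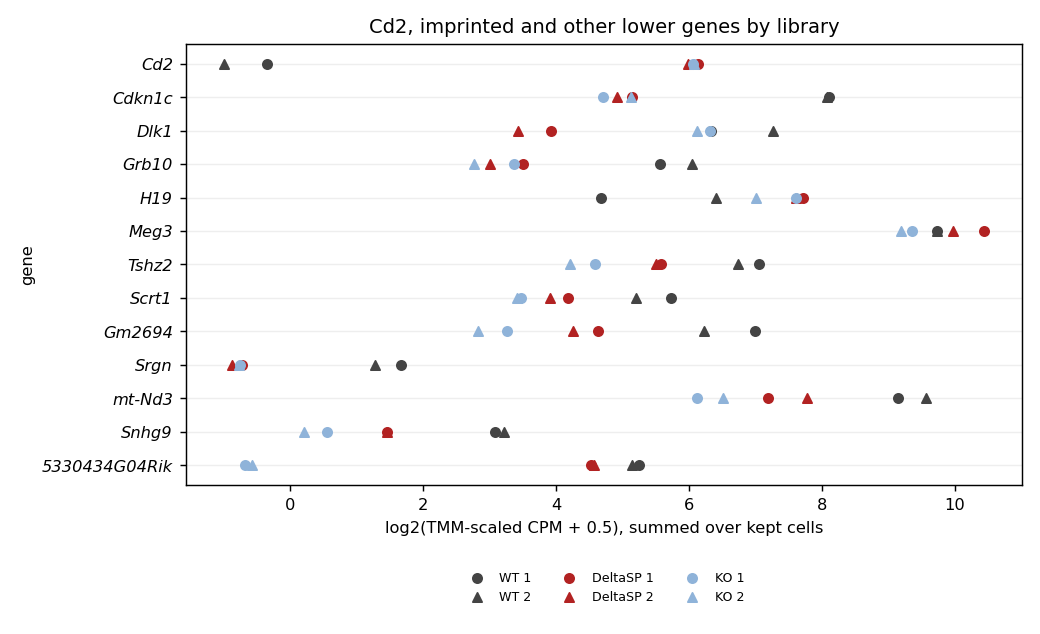
Levels of Cd2, imprinted genes and other lower genes in the 6 libraries, as log2 of TMM-scaled CPM plus 0.5, with 1 point per library (circle, replicate 1; triangle, replicate 2). Cdkn1c has 274 and 271 CPM in WT against 34.9 and 29.8 in DeltaSP, and for Dlk1 only the DeltaSP libraries, at 14.7 and 10.2 CPM, are far below WT.

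Genes of chromosome 11 were shifted upward as a group in DeltaSP. Over 1203 tested genes there the median log2 fold change was 0.37, a 1.29-fold level, and 80.9% of the values were above 0. On the 19 other chromosomes apart from Y, medians ran from -0.12 to 0.00440 and 38.6% to 50.2% of values were above 0. Measured per library against the WT mean, the chromosome 11 median was 0.36 in DeltaSP 1 and 0.35 in DeltaSP 2, and 0.35 and 0.36 in KO 1 and KO 2. DeltaSP libraries lay above WT without overlap for 58.7% of the genes of chromosome 11, against 24.9% of all tested genes and 16.3% to 25.1% on the others. Along the chromosome, in 13 bins of 10 Mb with 25 to 161 genes each, bin medians ran from 0.21 to 0.43. No copy number was measured, so the part of copy number was not tested.

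Of the 43 genes that rose, 12 (27.9%) lie on chromosome 11, as do 8.07% of the tested genes. They are Pno1, a ribosome assembly factor gene (0.97), Mybbp1a, a nucleolar protein gene (0.99), Eme1, a subunit of a DNA structure-specific nuclease (1.14), the thymidine kinase gene Tk1, and Irf1, Trim25, Ifi35, Xaf1, Rnf213, Ifi47, Igtp and Irgm2. Tk1, which salvages thymidine in S phase, rose from 39.0 and 46.2 CPM to 87.5 and 108 CPM, without overlap (1.20 ± 0.16, adjusted p = 0.047 in edgeR). Xaf1, an apoptosis-related gene induced by interferon, rose by 3.42, and by 4.04 without WT 1. Grb10, which fell, also lies there, and so do Top2a, Aurkb, Cdc6, Mapt and Hoxb9.

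**Figure D4:**
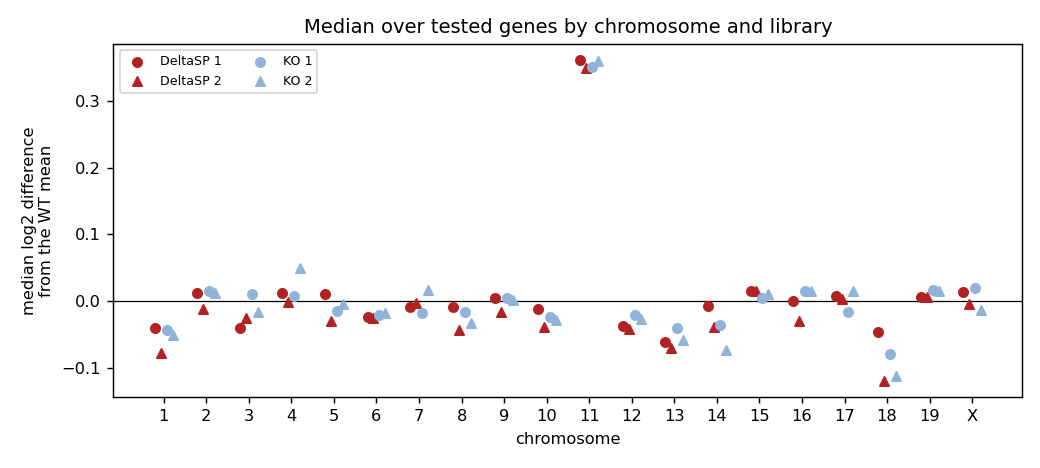
Median over tested genes of each chromosome of the log2 level (CPM plus 0.5) minus the mean of the WT libraries, for each DeltaSP and KO library; the axis ends above and below the values. Chromosome 11 stands at 0.35 to 0.36 in all 4 libraries, and the other chromosomes drawn lie near 0.

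Genes of dividing cells were mostly higher in DeltaSP, with 1 passing. Of 28 S phase genes 1, Tk1, rose in edgeR, and DeltaSP lay above WT without overlap in 25, against 24.9% of all tested genes. The median was 0.56, 23 had an unadjusted p under 0.05 and DESeq2 called 4 higher. Of 30 genes of G2 and M phase 0 passed in edgeR, 24 did not overlap and were higher, 17 had an unadjusted p under 0.05 and DESeq2 called 3. Their median of 0.48 was 0.30 without DeltaSP 2 and 0.33 with the stricter cell filter. Summed over the G2 and M list, levels were 3602 and 3287 CPM in WT and 3626 and 4422 CPM in DeltaSP, with DeltaSP 1 close to WT 1. In the neuron-marker-low cells these sums overlapped, at 6137 and 5731 CPM in WT and 5648 and 5843 CPM in DeltaSP. S phase genes summed over all cells to 1526 and 1783 CPM in WT and 2200 and 2668 CPM in DeltaSP. The proliferation marker Mki67 was at 39.5 and 47.0 CPM in WT and 61.5 and 70.6 CPM in DeltaSP (0.61 ± 0.17, adjusted p = 0.187 in edgeR). Its DeltaSP libraries were above its WT libraries, by less than the test required. The topoisomerase gene Top2a (0.96), the mitotic kinase gene Aurkb (1.04) and the replication licensing gene Cdc6 (1.23) did not pass either, and these 3 lie on the shifted chromosome 11.

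Neuronal genes were mostly lower in DeltaSP, and 0 passed. Of 18 pan-neuronal genes 13 had lower DeltaSP libraries without overlap, against 23.1% of all tested genes. Their median was -0.52, and was -0.32 without DeltaSP 2 and -0.77 without DeltaSP 1. At an unadjusted p under 0.05 there were 9 lower, and DESeq2 called 3. Dcx, a microtubule protein of young neurons, was at 195 and 183 CPM in WT and 115 and 82.2 CPM in DeltaSP (-0.94 ± 0.20, adjusted p = 0.144 in edgeR). Stmn2, which regulates microtubules in growing axons, was at 1561 and 1624 CPM in WT and 1065 and 862 CPM in DeltaSP (-0.73). For the neuronal tubulin Tubb3, at 1542 and 1960 CPM in WT and 1540 and 1257 CPM in DeltaSP (-0.32), the groups lay next to each other, with WT 1 and DeltaSP 1 almost equal. Of 22 synaptic genes 0 passed in edgeR, 11 were lower without overlap, 9 had an unadjusted p under 0.05 and DESeq2 called 3. Their median of -0.56 was -0.27 without WT 2, -0.20 without DeltaSP 2 and -0.85 without DeltaSP 1. Syt1, the calcium sensor of vesicle release, stood at -0.76. Of 11 tested neuropeptide genes 0 passed in edgeR or by DESeq2, 8 were lower without overlap and 4 had an unadjusted p under 0.05, with a median of -0.57.

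Among genes of motor neurons and their progenitors 0 passed in edgeR. Of 17 motor neuron genes, 7 were lower and 2 higher without overlap, beside 23.1% and 24.9% of all tested genes. At an unadjusted p under 0.05, 4 were lower and 2 higher, beside 8.36% and 8.77%, and DESeq2 called 1 lower, beside 1.93%. Their median of -0.34 was -0.0285 without WT 2 and -0.21 without DeltaSP 2. Mnx1, the source of the reporter's regulatory sequence, was at 154 and 122 CPM in WT and 119 and 88.6 CPM in DeltaSP (-0.41 ± 0.20, adjusted p = 0.342 in edgeR). The higher DeltaSP library lay just under the lower WT library. Isl1, a motor neuron identity factor, stood at -0.34, its partner Lhx3 at 0.13 and Chat, which makes acetylcholine, at -0.41. Olig2, the factor of motor neuron progenitors, was at 179 and 164 CPM in WT and 250.4 and 263 CPM in DeltaSP (0.58 ± 0.14, adjusted p = 0.163). The progenitor factor Sox2 stood at 0.43 and the proneural Neurog2 at 0.37. All 4 motor neuron progenitor genes were above 0, 2 without overlap, with a median of 0.37. In edgeR 0 of them passed, while 2 had an unadjusted p under 0.05 and DESeq2 called 2. Of 15 neural progenitor genes 0 passed in edgeR, 3 were higher and 1 lower at an unadjusted p under 0.05, DESeq2 called 2 higher and 1 lower, and the median was 0.18.

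Hox genes give cells their position from head to tail, and 0 of those tested passed in edgeR. Of 10 tested genes of paralogues 6 to 10, 7 were lower without overlap, beside 23.1% of all tested genes. Of the 10, 4 had an unadjusted p under 0.05 and DESeq2 called 3. Their median of -0.76 was -1.30 without DeltaSP 2. Hoxb9, a thoracic gene, was at 28.04 and 18.7 CPM in WT and 9.18 and 7.29 CPM in DeltaSP (-1.50 ± 0.32, adjusted p = 0.146 in edgeR). Its libraries did not overlap, although it lies on chromosome 11, where the median was above 0. Of 15 genes of paralogues 1 to 5, 2 had an unadjusted p under 0.05, beside 8.36% of all tested genes lower at that level, and DESeq2 called 1. Their median of -0.29 was -0.0817 without DeltaSP 2 and -0.44 without DeltaSP 1. Hoxa5 was at 477 and 360 CPM in WT and 235 and 101 CPM in DeltaSP (-1.31, adjusted p = 0.225), with DeltaSP 2 the lower library. Of 22 genes of cholesterol synthesis 0 passed in edgeR, 6 were lower at an unadjusted p under 0.05 and DESeq2 called 1. Their median of -0.22 was -0.00082 without WT 2 and -0.38 without WT 1. Of 13 neural long non-coding RNAs, the edited transcript included, 0 passed in edgeR, 8 were lower and 1 higher at an unadjusted p under 0.05 and DESeq2 called 6 lower, with a median of -0.86 that was -0.52 without WT 1.

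**Figure D5:**
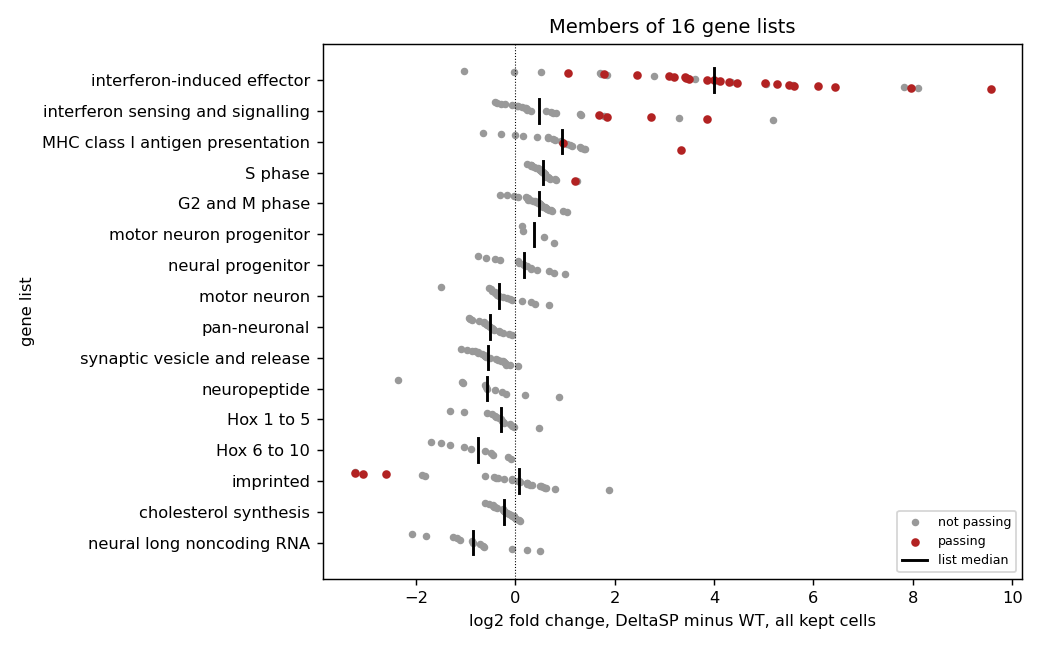
Log2 fold change between DeltaSP and WT (horizontal axis) of the tested members of 16 gene lists, red where edgeR's adjusted p passed 0.05 and grey where it did not, with a black bar at each list's median. The interferon-induced effectors have a median of 4.0 and 21 passing members, and the pan-neuronal and synaptic lists have medians of -0.52 and -0.56 and 0 passing.

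The share of neuron-marker-high cells was lower in DeltaSP, with wide spread. It was 49.1% in WT 1 (95% exact binomial interval 47.4 to 50.7) and 44.0% in WT 2 (41.5 to 46.6), 38.4% in DeltaSP 1 (36.4 to 40.5) and 27.7% in DeltaSP 2 (26.2 to 29.2), and 27.98% and 25.8% in KO. The shares cover 3563 of 9345 deposited barcodes in WT 1 and 1511 of 2161 in WT 2. In DeltaSP they cover 2180 of 3031 and 3401 of 4613. How the larger loss of barcodes in WT 1 bears on its share was not tested. The genotypes did not overlap, with 46.5% ± 3.57 (SD, n = 2) in WT and 33.1% ± 7.60 (SD, n = 2) in DeltaSP, a difference of -13.5 percentage points. By an exact permutation test over libraries, two-sided, p was 0.333, the smallest that 2 libraries against 2 allow, so this comparison could not reach 0.05. Without DeltaSP 2 the difference was -8.09 points. This difference in shares stands beside every all-cell value above.

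Within the neuron-marker-high cells, 2 of 12971 tested genes (0.0154%) passed in edgeR, Cd2 higher and Cdkn1c lower, and without WT 2 there were 1019 and without DeltaSP 2 there were 5. Within the neuron-marker-low cells 9 of 13897 (0.0648%) passed: Cd2, Bst2, Igtp, Ifi27, Ifi35, Gbp7, Parp12 and Xaf1 rose and Cdkn1c fell. For the low cells, leaving out WT 1 gave 3, WT 2 gave 788, DeltaSP 1 gave 0 and DeltaSP 2 gave 2. The motor neuron list had a median of -0.03 in the high cells and -0.06 in the low cells, against -0.34 over all cells. The S phase list stood at 0.31 and 0.33, against 0.56 over all cells, and G2 and M phase at 0.38 and 0.20, against 0.48. Hox genes of paralogues 6 to 10 stood at -0.84 and -0.90 within the high and low cells, and 7 of the 9 tested were lower without overlap in each. Of all tested genes, 2697 of 12971 in the high cells and 2902 of 13897 in the low cells were lower without overlap. The list medians within the high and low cells were not tested against those over all cells.

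Markers of other cell types were summed per library as well, and in each list below 0 members passed in edgeR or by DESeq2. Summed blood markers were 1.98 and 0.345 CPM in WT and 0.213 and 0.240 CPM in DeltaSP, with 0 of 8 reaching the level needed for the test. Glial markers summed to 513 and 657 CPM in WT and 537 and 412 CPM in DeltaSP, and interneuron markers to 134 and 103 CPM and to 118 and 110 CPM. Those of p3 progenitors or floor plate, ventral neighbours of the motor neuron domain, summed to 99.5 and 402 CPM in WT and 307 and 305 CPM in DeltaSP, so that WT 1 was the low library. For each of these 3 lists the WT libraries overlapped those of DeltaSP. Germ cell markers stood at 8.84 and 33.4 CPM in WT and 20.3 and 103 CPM in DeltaSP, and pluripotent markers at 27.2 and 30.6 CPM and at 28.3 and 49.0 CPM, with DeltaSP 2 the highest of the 4 libraries for either. Endoderm markers summed to 21.5 and 28.8 CPM in WT and 17.0 and 36.3 CPM in DeltaSP, and neural crest markers to 23.6 and 45.5 CPM and to 23.8 and 41.6 CPM. Mesoderm or mesenchyme markers summed to 36.0 and 87.3 CPM in WT and 71.9 and 71.0 CPM in DeltaSP, endothelial markers to 22.9 and 21.97 CPM and to 21.8 and 29.5 CPM, and surface epithelium markers to 2.10 and 5.37 CPM and to 5.18 and 7.46 CPM. The sums of these 7 lists overlapped between the genotypes too. At an unadjusted p under 0.05, 2 of 8 tested germ cell, 1 of 7 pluripotent and 2 of 12 mesoderm genes were higher, and 1 of 5 glial, 2 of 16 interneuron, 1 of 9 p3 or floor plate and 1 of 7 endoderm genes were lower. For neural crest (6 tested), surface epithelium (2) and endothelium (3) the number was 0. The part of these cells in the results above was not tested. The defining motor neuron markers Mnx1, Isl1 and Chat were present in all 4 libraries.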

How the data were processed

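The authors deposited unnormalized whole-number UMI counts for 31053 genes in each cell barcode, made with Cell Ranger 4.0 per the submitters' processing notes and, per the series' design text, on mm10 with Ensembl release 93. The labels name the kit in more than 1 version. Every deposited barcode had at least 500 UMIs. Annotation came from GENCODE for the same build, which matched 30525 gene names.

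UMIs of kept cells were summed per library, 20318500 (WT 1), 27061174 (WT 2), 35965573 (DeltaSP 1) and 47927845 (DeltaSP 2), and tested by edgeR's quasi-likelihood method (edgeR 4.0.16, R 4.3.3). TMM scaling and filterByExpr came before it, all 6 libraries shared the fit, genotype was the term, and p was adjusted by Benjamini-Hochberg with a threshold of 0.05. Doublets were not removed. Errors of log2 fold changes are SE of that fit. On simulated data with 14900 genes the all-cell test recovered 29 of 100 genes changed 2-fold and 77 of 100 changed 4-fold, with 8 false calls, so smaller differences can be missed at 2 clones per genotype. Neuron-marker-high and -low cells were tested in the same way. Chromosome medians per library used log2(CPM + 0.5).

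Genes named were up to 15 of the largest rises and falls that passed, had groups without overlap and reached 20 CPM, passing members of the lists (up to 4 each), genes passing in every leave-one-out fit, 5330434G04Rik and a fixed set of marker genes. Other genes, such as Irf7, H19, Meg3 and Cox7b, and passing genes below 20 CPM, were chosen after their values were seen. The comparison, its members and the lists were chosen with earlier results of these data known. Alternatives were DESeq2 size factors or no TMM in edgeR, the DESeq2 1.42.0 Wald test, testing without the low-count filter, a replicate block, only WT and DeltaSP in the fit, removal of the transcript length trend, leaving out each library (for medians of some lists added after seeing the data), other cell filters and thinning. Promoter, micro RNA and seed sequences were read from RefSeq tables for GRCm38.p6.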

Additional observations from a re-analysis of the deposited data

How the results depend on the processing

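With each setting changed alone, the 53 genes that passed over all cells kept their sign in every one tested. The count of passing genes was 604 by DESeq2, 1326 without a filter on low counts, 22 with a replicate block and 13 with a stricter cell filter (2000 genes, 5% mitochondrial UMIs). It ranged from 1 to 1106 when a library was left out. Scaling by library totals without TMM gave 57 and moved the median of all tested genes from -0.01 to 0.11. Thinning cells to 3000 UMIs gave 56, 36 of them shared with the 53, and leaving out either KO library, an alternative chosen after seeing the data, gave 41. With only WT and DeltaSP in the fit the count was 42, and 35 of these were among the 53. Same-numbered libraries deviated together with correlations of -0.18 (WT and DeltaSP), 0.28 (WT and KO) and 0.06 (DeltaSP and KO) over 10214 genes. With 2 libraries per genotype these values cannot decide whether the numbers pair the samples. Of the 53 genes 20 passed with the replicate block. In neuron-marker-high cells the count of 2 became 18 without TMM, 246 by DESeq2, 125 without the filter, 9 with the replicate block, 13 with only WT and DeltaSP in the fit, 11 with the length trend removed, 6 when dividing at 5 UMIs, and 2 to 1019 on leaving out a library. In neuron-marker-low cells the count of 9 became 264 by DESeq2, 900 without the filter, 1 with the replicate block, 21 with only WT and DeltaSP, 1 when dividing at 5 UMIs, and 0 to 788 on leaving out a library. 5330434G04Rik passed by DESeq2 (-0.67) and without the filter (-0.61), and stood at -0.71 to -0.60 on leaving out a library, passing without WT 2. The neuron-marker-high share differed by -19.7 points when dividing at 5 UMIs and by -18.8 to -8.09 on leaving out a library. The chromosome 11 median was 0.50 without TMM, 0.39 after thinning, 0.39 over genes at 5 CPM or more (added after seeing the data) and 0.35 to 0.43 on leaving out a library. Signs changed for values that did not pass: on leaving out a library Neurog2 ranged from -0.0271 (without WT 2) to 0.93, Lhx3 from -0.0448 (without DeltaSP 1; -0.0282 without WT 2) to 0.31, and the imprinted list's median from -0.13 (without DeltaSP 1; -0.0073 without WT 1) to 0.10. The cause of these changes was not tested. WT 1 had the fewest UMIs per cell, and effectors with under 1 CPM in WT rest on few molecules.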
